A study of Mus musculus with 32 samples.

Results

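The comparison described here is that of whole colon from Dnase1l3-KO mice with whole colon from WT mice at D80 of the AOM/DSS procedure. The libraries were chosen by their labels alone: 4 KO and 4 WT colon libraries of the late stage, 8 of the 32 libraries in the series. All mice were C57BL/6, had received AOM at 8 mg/kg when 3 months old and then 3 cycles of 2.5% DSS in drinking water, each of 7 days, and were sampled 24 days after the last DSS treatment. The KO mice carried a constitutive deletion of Dnase1l3 in the whole body (Dnase1l3-/-), the WT mice carried none, and treatment was the same in both. Each library was made from total RNA of 1 mouse, and the sex of these mice was not given. The comparison asks how the colon as a whole differed between the genotypes at a late stage of AOM/DSS, apart from the isolated tumors that the series holds as other libraries.

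AOM is a carcinogen activated in liver and colon, and DSS is a sulfated polymer that injures the colon epithelium, so that repeated cycles give chronic colitis with epithelial tumors. DNASE1L3 is a secreted nuclease, made largely by macrophages and dendritic cells, that digests DNA still packed in chromatin or membrane particles released from dying cells. Interferons act through receptors and JAK kinases and switch on large sets of genes. IFN-γ acts on GAS elements, and type I IFN through the ISGF3 complex on interferon-stimulated response elements.

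Total counts were 29955789 to 45323252 in the WT and 27663690 to 43815431 in the KO libraries (exact two-sided permutation test of the means, p = 0.657), and no pair of libraries held identical counts. Mice are called by the number in their labels, which also carry a prefix whose meaning was not given; WT 541 and 542 and KO 543 and 544 shared the prefix 76. The library of WT mouse 581 stood apart from the other 7. Mitochondrially encoded mRNAs took 15.1% of its counts against 4.49% to 5.91% in the others, and ribosomal protein mRNAs 6.86% against 3.86% to 4.41%. Between genotypes the exact two-sided permutation p was 0.114 for the mitochondrial share and 0.914 for the ribosomal share. Colon markers were present in every library, with Muc2, the main goblet cell mucin, at 4126, 4143, 3281 and 4689 CPM in WT and 2869.9, 5619, 3221 and 3175 CPM in KO. CPM express the counts of a gene relative to the library total, scaled by TMM factors that correct for library composition. Libraries are given in the order of mice 541, 542, 555 and 581 for WT and 527, 535, 543 and 544 for KO. Hoxb13, a marker of the distal colon, was at 113, 71.4, 152 and 193 CPM in WT and 123, 88.1, 68.3 and 90.8 CPM in KO, with overlapping groups. Dnase1l3 itself was at 3.14, 7.99, 8.85 and 4.26 CPM in WT and 3.23, 3.04, 4.02 and 11.8 CPM in KO, and the groups overlapped. The study reported Dnase1l3 expression as greatly lowered in all parts of the intestine of this strain, and KO serum as defective in digesting DNA. In these counts the log2 fold change was -0.17, and KO 544 was the highest of the 8 libraries. The cause of this difference from the study was not tested. Which exons the deletion removes was not named in the sources used here, so these counts cannot serve as a check of the genotype.

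Of 55291 genes in the counts, 18899 were tested. edgeR's quasi-likelihood test called none at a Benjamini-Hochberg adjusted p under 0.05 with a fold change over 2, neither higher (0%) nor lower (0%) in KO, and the lowest adjusted p was 0.681. At an unadjusted p under 0.05 there were 1049 genes, 527 higher (2.79%) and 522 lower (2.76%), or 5.55% of those tested. DESeq2, the tool of the study, called 32 genes higher (0.169%) and 11 lower (0.0582%) at the same thresholds, and 31 and 11 of them had KO and WT libraries that did not overlap. Across all genes tested, every KO library lay above every WT library for 661 genes (3.5%) and below for 363 (1.92%). Such genes are called apart in what follows. These counts moved with single libraries: they were 1123 and 627 without WT 541, 1436 and 946 without WT 542, and 2260 and 1235 without KO 535. The lower count alone was 601 without KO 544. Without WT 581 they were 905 (4.79%) and 741 (3.92%) among the same 18899 genes, and DESeq2 then called 61 higher (0.316%) and 28 lower (0.145%), 39 of its 43 calls with all libraries among them. Fewer libraries overlap less often, so counts of genes apart without WT 581 are to be read against 4.79% above and 3.92% below. Under another library scaling, RLE, the counts of 661 and 363 became 526 and 483. Every gene named below had an edgeR adjusted p of at least 0.681, so fold changes are given as measured values, log2 of KO over WT with SE. The median log2 fold change over all genes tested was 0.010, and 50.9% lay above 0. Each group was bulk tissue, so fewer cells of a type and less RNA per cell cannot be told apart.

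The genes named as highest in KO by their p included Ubd, Cxcl9, Cxcl10, Ifi44 and Usp18, all on lists of interferon-induced genes. The sequences at their start sites are shown because the IFN lists had the largest shares of genes that were apart among the 43 lists. The windows run from 250 bases before to 50 bases after the start site on the gene's strand (RefSeq, GRCm38.p6), and Usp18 is named only. Capitals mark matches to GAAANNGAA, the core of an interferon-stimulated response element, or to TTCNNNGAA, the core of a GAS element, each searched on both strands.
Cxcl9, chr5:92328030-92328329, minus strand: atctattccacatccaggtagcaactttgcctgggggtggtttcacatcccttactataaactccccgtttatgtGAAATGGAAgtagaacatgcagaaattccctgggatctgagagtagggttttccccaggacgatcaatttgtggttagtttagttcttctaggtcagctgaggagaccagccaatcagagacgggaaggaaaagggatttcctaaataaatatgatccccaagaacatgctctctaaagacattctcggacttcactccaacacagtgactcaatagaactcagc
Cxcl10, chr5:92348840-92349139, minus strand: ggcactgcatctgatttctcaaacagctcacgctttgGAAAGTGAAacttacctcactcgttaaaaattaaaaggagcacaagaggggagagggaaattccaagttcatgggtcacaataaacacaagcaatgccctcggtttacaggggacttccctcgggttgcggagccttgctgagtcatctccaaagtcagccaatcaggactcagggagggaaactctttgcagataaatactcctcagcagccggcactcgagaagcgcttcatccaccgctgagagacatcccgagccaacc
Ifi44, chr3:151749861-151750160, minus strand: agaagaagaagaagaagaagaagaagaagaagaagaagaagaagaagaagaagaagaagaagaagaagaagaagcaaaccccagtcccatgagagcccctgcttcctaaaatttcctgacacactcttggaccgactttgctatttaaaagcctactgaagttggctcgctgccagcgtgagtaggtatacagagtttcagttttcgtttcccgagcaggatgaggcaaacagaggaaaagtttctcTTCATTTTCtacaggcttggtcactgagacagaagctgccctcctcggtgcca
Ubd, chr17:37193642-37193941, plus strand: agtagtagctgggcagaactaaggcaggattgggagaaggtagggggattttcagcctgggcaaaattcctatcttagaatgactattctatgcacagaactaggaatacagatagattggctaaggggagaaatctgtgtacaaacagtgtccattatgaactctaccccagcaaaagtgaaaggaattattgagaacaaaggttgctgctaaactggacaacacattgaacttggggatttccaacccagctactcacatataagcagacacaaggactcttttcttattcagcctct
The windows of Cxcl9, Cxcl10 and Ifi44 each held 1 match to GAAANNGAA and none to TTCNNNGAA, beginning 175, 213 and 3 bases before the start site. The match of Ifi44 reads along the opposite strand. Neither set of letters occurred in the Ubd window. Of 23 genes of the IFN-γ-induced list with a window, 60.9% held GAAANNGAA and 39.1% held TTCNNNGAA. Of 26 genes of the type I list, 69.2% and 11.5% did. The shares over 12305 tested genes, with the first window of each, were 7.56% and 6.96%. Both lists hold genes known to be induced by interferon, so these shares say nothing about KO against WT. A match describes the letters of the window and is not a measured binding site.

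IFN-γ-induced genes were higher in KO than in WT for 36 of 38 members tested, and the median of the list was 1.11 on the log2 scale. For 30 of them every KO library lay above every WT library, against 3.5% of all genes, and DESeq2 called 6. Besides Ubd, Cxcl9 and Cxcl10 those were the GTPase genes Tgtp1, Tgtp2 and Gbp11, of which Tgtp1 and Tgtp2 are near-identical copies. Others that were apart included Irf8, Ido1, Tap1, Cd274 and 9 further guanylate-binding protein genes. Without WT 581 the count was 33 and the median 0.89. The summed level of the list was 1189 to 1654 CPM in WT and 2126 to 2617 CPM in KO. Ubd (ENSMUSG00000035186, chr17:37193892-37196095), which encodes the ubiquitin-like modifier FAT10, was at 17.6, 15.9, 10.7 and 7.58 CPM in WT and 55.5, 54.1, 33.03 and 46.4 CPM in KO. The lowest KO library was well above the highest WT library, and the log2 fold change was 1.84 (SE 0.29). Cxcl9 (ENSMUSG00000029417, chr5:92321347-92328079), a ligand of CXCR3, a chemokine receptor of activated T cells, was at 16.5, 21.3, 8.03 and 5.21 CPM in WT and 57.6, 52.3, 35.01 and 49.8 CPM in KO. The groups did not overlap, and WT 581 and 555 were the lowest libraries. Its log2 fold change was 1.90 (SE 0.42). Cxcl10, another CXCR3 ligand, was at 3.43, 5.51, 1.95 and 1.48 CPM in WT and 18.4, 9.52, 8.08 and 13.97 CPM in KO, with a log2 fold change of 1.97 (SE 0.43). Here too each KO library exceeded each WT library. Socs1, a feedback inhibitor of IFN signaling, was at 3.66, 4.29, 3.44 and 2.78 CPM in WT and 12.7, 5.47, 8.33 and 6.28 CPM in KO, a log2 fold change of 1.17 (SE 0.28). The groups were apart, with KO 527 the highest. Ifng itself did not pass the filter on low counts, with 6, 1, 2 and 0 counts in the WT and 10, 18, 3 and 12 counts in the KO libraries. KO 543 held fewer counts of it than WT 541, so the groups overlapped. In the pair of WT and the pair of KO mice with the label prefix 76, the median of the list was 0.64.

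**Figure D1:**
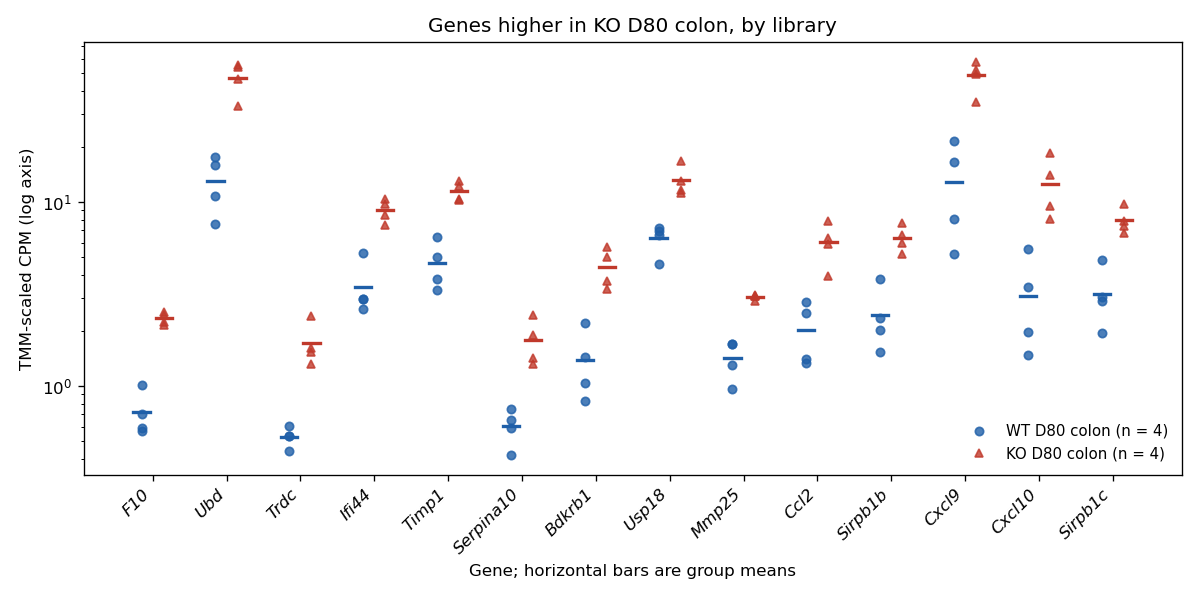
TMM-scaled CPM (log axis) of the 14 genes named as highest in KO D80 colon (horizontal axis), with blue circles for the 4 WT and red triangles for the 4 KO libraries and bars at the group means. The genes were chosen for groups that do not overlap; F10 lies between 2.14 and 2.53 CPM in KO and between 0.568 and 1.01 CPM in WT.

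Type I IFN-stimulated genes were higher in KO for 33 of 35 members, with a median of 0.71 on the log2 scale. The libraries did not overlap for 19 of them, and DESeq2 called 1, Ifi44. The median was 0.57 without WT 581, with 22 genes apart, and 0.34 within prefix 76. Ifi44, an interferon-induced cytoplasmic protein, was at 5.304, 2.98, 2.97 and 2.604 CPM in WT and 8.47, 10.4, 7.501 and 9.804 CPM in KO, a log2 fold change of 1.34 (SE 0.26). All KO libraries lay above WT 541, the highest of the WT libraries. Usp18, which removes ISG15 from proteins and dampens the IFN receptor, was at 6.97, 7.24, 4.57 and 6.63 CPM in WT and 16.7, 11.2, 13.02 and 11.5 CPM in KO, a log2 fold change of 1.01 (SE 0.21). Zbp1, a sensor of Z-form nucleic acid, was at 54.4, 50.3, 41.4 and 40.3 CPM in WT and 78.5, 72.96, 78.3 and 74.5 CPM in KO. The 4 KO libraries lay close together above all WT libraries, and the log2 fold change was 0.67 (SE 0.15). Ifit3b, of the IFIT family that binds foreign RNA, had a log2 fold change of 0.76 (SE 0.17) with groups apart.

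Genes of antigen presentation were mostly higher in KO. All 11 MHC class I pathway genes tested were higher in KO, their median was 0.35 on the log2 scale, and 5 of them were apart: H2-Q7, H2-Q6, H2-Q4, Tapbpl and H2-D1. H2-Q7, a class Ib molecule, was at 127, 107, 85.5 and 90.9 CPM in WT and 154, 215, 148 and 223 CPM in KO, a log2 fold change of 0.82 (SE 0.22). The groups did not overlap, but H2-Q6 and H2-Q7 are near-identical copies whose reads may be split between them. H2-Q4 had a log2 fold change of 0.99 (SE 0.33). Of 10 MHC class II genes, 8 were higher in KO, with a median of 0.45 and none apart. That median was 0.15 without KO 535, 0.15 within prefix 76 and 0.093 with limma. Cd74, the invariant chain, was at 906, 599.6, 579 and 225 CPM in WT and 756, 1432, 599.8 and 1276 CPM in KO, and the groups overlapped: KO 535 and 544 were high, while KO 527 and 543 lay within the WT range. Of 16 DNase and DNA sensing genes, 11 were higher in KO, with a median of 0.14 and 3 apart. Those were Ifi204, Ifi205 and Mndal, all of the interferon-inducible p200 family of DNA-binding proteins, with Ifi204 at 0.89 (SE 0.30). The median of the list was 0.016 without WT 581, with 8 of 16 genes higher, and 0.034 within prefix 76, against 0.23 without WT 555 and 0.21 without KO 544.

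Neutrophil genes had the highest median of the lists, 1.95, with 17 of 18 members higher in KO, 9 apart and 5 called by DESeq2 (Mmp25, Fpr1, Fpr2, Il1f9 and Clec4e). The median was 1.73 without WT 581, with 9 apart, and 1.01 within prefix 76. Of 23 genes listed, 18 passed the filter on low counts, which a gene can pass through the KO libraries alone. With at least 10 counts required in each library the median was 1.51. The summed level of the list was 101 to 297 CPM in WT, highest in WT 581, and 120 to 424 CPM in KO, and these ranges overlapped. Fpr1, a receptor for bacterial formyl peptides, was at 0.312, 0.537, 0.148 and 0.118 CPM in WT and 2.06, 1.06, 1.02 and 0.9804 CPM in KO. All KO libraries were above all WT libraries, KO 527 furthest, and the log2 fold change was 2.10 (SE 0.47). Fpr2, its close relative, had a log2 fold change of 1.84 (SE 0.44). Mmp25, a membrane-bound metalloproteinase of neutrophils, was at 1.68, 1.699, 0.964 and 1.302 CPM in WT and 3.098, 2.89, 3.096 and 3.12 CPM in KO, a log2 fold change of 1.07 (SE 0.23). The KO libraries were nearly equal, all above the WT range. Il1f9, which encodes the cytokine IL-36γ, was at 0.2496, 0.596, 0.124 and 0.118 CPM in WT and 2.22, 0.844, 1.56 and 0.9497 CPM in KO, a log2 fold change of 2.27 (SE 0.54). The groups were again apart, with WT 542 nearest to KO. Counts in the WT libraries were low, at 15, 18, 6 and 2 for Fpr1 and 12, 20, 5 and 2 for Il1f9.

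The chemokines that draw neutrophils differed in size but not without overlap. Their median was 1.89, 4 of 5 were higher in KO and none was apart. Cxcl5 was at 3.41, 16.5, 4.13 and 2.72 CPM in WT and 73.4, 13.4, 29.9 and 18.1 CPM in KO, and Cxcl1 at 1.102, 3.76, 0.865 and 0.888 CPM and 11.02, 2.98, 4.31 and 3.46 CPM. In both, WT 542 was the single high WT library and reached into the KO range, while KO 527 was far above the rest. Without WT 542 the median of the list was 3.24, and within prefix 76, which holds that library, it was 0.69. With at least 10 counts required in each library it was 1.685. Among 21 chemokines for monocytes and lymphocytes, 13 were higher in KO and the median was 0.12, with 3 apart. Those were Ccl2, Ccl3 and Cxcl16. Within prefix 76 the median was -0.043, and it was 0.48 without WT 581, 0.29 without WT 541, 0.22 without KO 543 and -0.011 without KO 535, so that its sign turned. Ccl2, the main monocyte chemoattractant, was at 1.33, 2.86, 1.41 and 2.49 CPM in WT and 7.87, 5.93, 3.96 and 6.34 CPM in KO, a log2 fold change of 1.55 (SE 0.33). Ccl3, a chemokine of activated macrophages, was at 0.395, 0.477, 0.371 and 0.118 CPM in WT and 1.01, 0.866, 0.926 and 1.103 CPM in KO, a log2 fold change of 1.41 (SE 0.32). Cxcl16, the ligand of CXCR6, differed by 0.52 (SE 0.16) on the log2 scale. DESeq2 called Ccl2 and Ccl3 of this list.

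Acute phase and antimicrobial genes were higher in KO for 14 of 16 members, with a median of 1.30, 5 apart (Saa3, Chil1, Hp, Lbp and Lcn2) and 3, Saa3, Chil1 and Hp, called by DESeq2. Saa3, a serum amyloid made locally in inflamed tissue, was at 13.4, 36.6, 6.57 and 7.28 CPM in WT and 86.1, 87.1, 86.1 and 67.9 CPM in KO. The KO libraries were close to each other while the WT libraries spread, with WT 542 the highest, and the log2 fold change was 2.33 (SE 0.53). Hp, haptoglobin, was at 12.1, 32.3, 7.61 and 2.66 CPM in WT and 79.1, 78.9, 69.1 and 65.9 CPM in KO, a log2 fold change of 2.40 (SE 0.63). Chil1, a chitinase-like protein of macrophages and injured epithelium, had a log2 fold change of 1.66 (SE 0.39), and Lbp, which binds bacterial lipopolysaccharide, one of 0.74 (SE 0.21). The groups did not overlap for either. Within prefix 76 the median of the list was 0.28, with the stricter filter 0.86, and without WT 581 it was 1.02, with 6 apart. The IL-1 family and its receptors had a median of 0.93, with 12 of 15 higher in KO and 5 apart (Il18bp, Il1f9, Il1r2, Nlrp3 and Il1r1), and it was 0.31 within prefix 76. Il18bp, the secreted inhibitor of IL-18, was at 12.3, 10.6, 7.44 and 7.93 CPM in WT and 17.8, 20.9, 16.6 and 19.5 CPM in KO, a log2 fold change of 0.93 (SE 0.20) with groups apart. Il33, an epithelial and stromal alarmin, overlapped through WT 542 and had a log2 fold change of 1.01 (SE 0.32). IL-6 family cytokines and STAT3 targets had a median of 0.67, with 10 of 11 higher in KO and 2 apart, Il11 and Osmr, and it was 0.32 without WT 581 and 0.17 within prefix 76. Il11, a fibroblast cytokine of that family, was at 0.603, 1.82, 0.321 and 0.355 CPM in WT and 12.3, 2.998, 4.18 and 2.85 CPM in KO, a log2 fold change of 2.79 (SE 0.70). KO 527 was the highest, and the other KO libraries still lay above the WT range. Osm and Socs3, a cytokine of the family and a STAT3 target, differed by 1.98 (SE 0.74) and by 1.38 (SE 0.51), both log2 fold changes, with overlapping groups.

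Monocyte and macrophage genes were higher in KO for 22 of 26 members, with a median of 0.47, 9 apart above WT, 1, Gpnmb, apart below, and 4 called by DESeq2 as higher (Sirpb1a, Sirpb1b, Sirpb1c and Acod1). Within prefix 76 the median was 0.22. Acod1, which makes itaconate in activated macrophages, was at 1.27, 2.59, 0.865 and 0.237 CPM in WT and 11.3, 7.54, 4.09 and 5.67 CPM in KO, a log2 fold change of 2.46 (SE 0.58). Every KO library exceeded WT 542, the highest WT library. The signal-regulatory protein genes Sirpb1b and Sirpb1c, expressed by myeloid cells, differed by 1.36 (SE 0.29) and by 1.29 (SE 0.28), both log2 fold changes, with groups apart. The Sirpb1 genes are near-identical neighbors, so they may not be independent measurements. Dendritic cell genes had a median of 0.39, with 12 of 15 higher in KO and 1, Fscn1, apart. It was 0.25 without KO 535, 0.66 without WT 541, 0.16 within prefix 76 and 0.048 with limma. Complement genes had a median of 0.44, with 15 of 17 higher in KO and 6 apart, among them C1s1, a protease of the classical pathway, at 0.59 (SE 0.24). Without WT 581, 6 were apart above and 1 below WT, and the median was 0.29 without KO 535 and 0.22 within prefix 76.

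T cell genes were higher in KO for 21 of 22 members, but by little, with a median of 0.45 and 4 apart. Those were Trdc, Trgc1 and Trgc2, constant regions of the γδ T cell receptor, and Zap70. Trgc1 was apart by a narrow margin, 1.16 CPM in WT 541 against 1.21 CPM in KO 527. So was Trgc2, 0.865 CPM in WT 542 against 0.877 CPM in KO 527. Within prefix 76 the median of the T cell list was 0.052. Cd3e, a subunit of the CD3 complex of all T cells, was at 2.23, 1.49, 1.41 and 0.355 CPM in WT and 2.22, 3.29, 1.63 and 2.24 CPM in KO, and the groups overlapped, with a log2 fold change of 0.72 (SE 0.44). Cd8a, the coreceptor of cytotoxic T cells, was at 2.23, 1.34, 1.63 and 1.12 CPM in WT and 1.34, 4.35, 1.37 and 1.47 CPM in KO, with KO 535 high and the other KO libraries in the WT range. Its log2 fold change was 0.40 (SE 0.45), which turned to -0.24 without KO 535 and -0.37 within prefix 76. Trdc (ENSMUSG00000104876, chr14:54142851-54148868), the constant region of the T cell receptor delta chain, was at 0.603, 0.537, 0.445 and 0.533 CPM in WT and 2.41, 1.605, 1.31 and 1.53 CPM in KO. The lowest KO library was well above the highest WT library, and the log2 fold change was 1.65 (SE 0.26). DESeq2 called Trdc as the only gene of this list. Zap70, the kinase of the T cell receptor, had a log2 fold change of 0.98 (SE 0.27) with groups apart. Gzmb, the cytotoxic protease granzyme B, was at 1.62, 2.38, 1.38 and 0.651 CPM in WT and 3.67, 5.24, 3.35 and 3.19 CPM in KO, a log2 fold change of 1.31 (SE 0.35). All KO libraries were above all WT libraries, with WT 581 the lowest. Cytotoxic lymphocyte genes as a list had a median of 0.49, with 13 of 14 higher in KO and 2 apart, Gzmb and Ctsw. All 12 regulatory T cell and checkpoint genes tested were higher in KO, with a median of 0.64 and 4 apart (Pdcd1, Il2ra, Havcr2 and Foxp3). Pdcd1, which encodes the checkpoint receptor PD-1, differed by 0.92 (SE 0.32), and Il2ra, the IL-2 receptor alpha chain, by 1.14 (SE 0.40). Within prefix 76 the medians of these 2 lists were 0.23 and 0.22. B and plasma cell genes were split, 12 of 24 higher, with a median of 0.056 and none apart. Within prefix 76 only 1 of 24 was higher and the median was -0.82. There 7 (29.2%) were apart below WT, against 18.8% of all genes tested within that prefix. The sign of the list's median changed with single libraries, from -0.25 without KO 535 to 0.44 without WT 541. Mast cell genes were split as well, 5 of 9 higher, with a median of 0.044 and 2 apart, Hdc and Mcpt4, and that median ran from -0.27 without WT 555 to 0.14 without WT 542. The summed level of T cell genes was 55.3 to 104 CPM in WT, lowest in WT 581, and 87.8 to 128 CPM in KO, and these ranges overlapped.

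Genes of matrix breakdown and wound repair were also higher in KO. Matrix metalloproteinases and their inhibitors had a median of 0.78, with 17 of 21 higher in KO, 6 apart (6 without WT 581) and 3 called by DESeq2 (Timp1, Mmp25 and Mmp3). Timp1, the tissue inhibitor of metalloproteinases, was at 3.81, 6.47, 3.31 and 5.03 CPM in WT and 12.3, 13.1, 10.2 and 10.3 CPM in KO, a log2 fold change of 1.27 (SE 0.24). The groups did not overlap, with WT 542 nearest to KO. Mmp3, stromelysin-1 of activated fibroblasts, was at 5.74, 14.1, 3.58 and 8.11 CPM in WT and 48.2, 82.5, 26.2 and 20.8 CPM in KO, a log2 fold change of 2.47 (SE 0.56). It spread widely within KO, with KO 535 the highest. Activated fibroblast and wound genes had a median of 0.50, with 16 of 19 higher in KO, 7 apart above and 1, Acta2, below WT. Its median within prefix 76 was 0.28. Bdkrb1, the bradykinin receptor induced by injury, was at 1.44, 2.21, 1.04 and 0.8286 CPM in WT and 5.02, 3.69, 3.35 and 5.698 CPM in KO, a log2 fold change of 1.64 (SE 0.32). Lox, which cross-links collagen, had a log2 fold change of 1.52 (SE 0.42) with groups apart.

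Coagulation and plasminogen genes had a median of 0.52, with 17 of 20 higher in KO, 4 apart, among them F10, Serpina10 and Procr, and 2, F10 and Serpina10, called by DESeq2. Without WT 581 the median was 0.35, and within prefix 76 0.27. F10 (ENSMUSG00000031444, chr8:13037308-13056676), coagulation factor X, had the smallest p among the named genes, at 0.707, 1.01, 0.568 and 0.592 CPM in WT and 2.22, 2.53, 2.43 and 2.14 CPM in KO. The groups were apart, with a log2 fold change of 1.65 (SE 0.24), an unadjusted p of 8.91e-05 in edgeR and an adjusted p of 8.68e-06 in DESeq2. Serpina10, an inhibitor of factor X, was at 0.749, 0.656, 0.4202 and 0.592 CPM in WT and 2.44, 1.41, 1.31 and 1.899 CPM in KO, a log2 fold change of 1.501 (SE 0.29). Collagen genes were higher in KO for 18 of 20 members, with a median of 0.82, but only 1, Col3a1, was apart. Col1a1, the main fibrillar collagen chain, was at 142, 177, 83.7 and 10.5 CPM in WT and 294, 149, 274 and 297 CPM in KO, with WT 581 very low and KO 535 within the WT range. The median of the collagens was 0.47 both without WT 581 and within prefix 76. Endothelial genes had a median of 0.37, with 15 of 17 higher in KO and 3 apart (Icam1, Egfl7 and Cdh5), and that median was 0.10 within prefix 76 and 0.58 without WT 541. The log2 fold change of Icam1, an adhesion molecule for leukocytes, was 1.24 (SE 0.40).

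**Figure D2:**
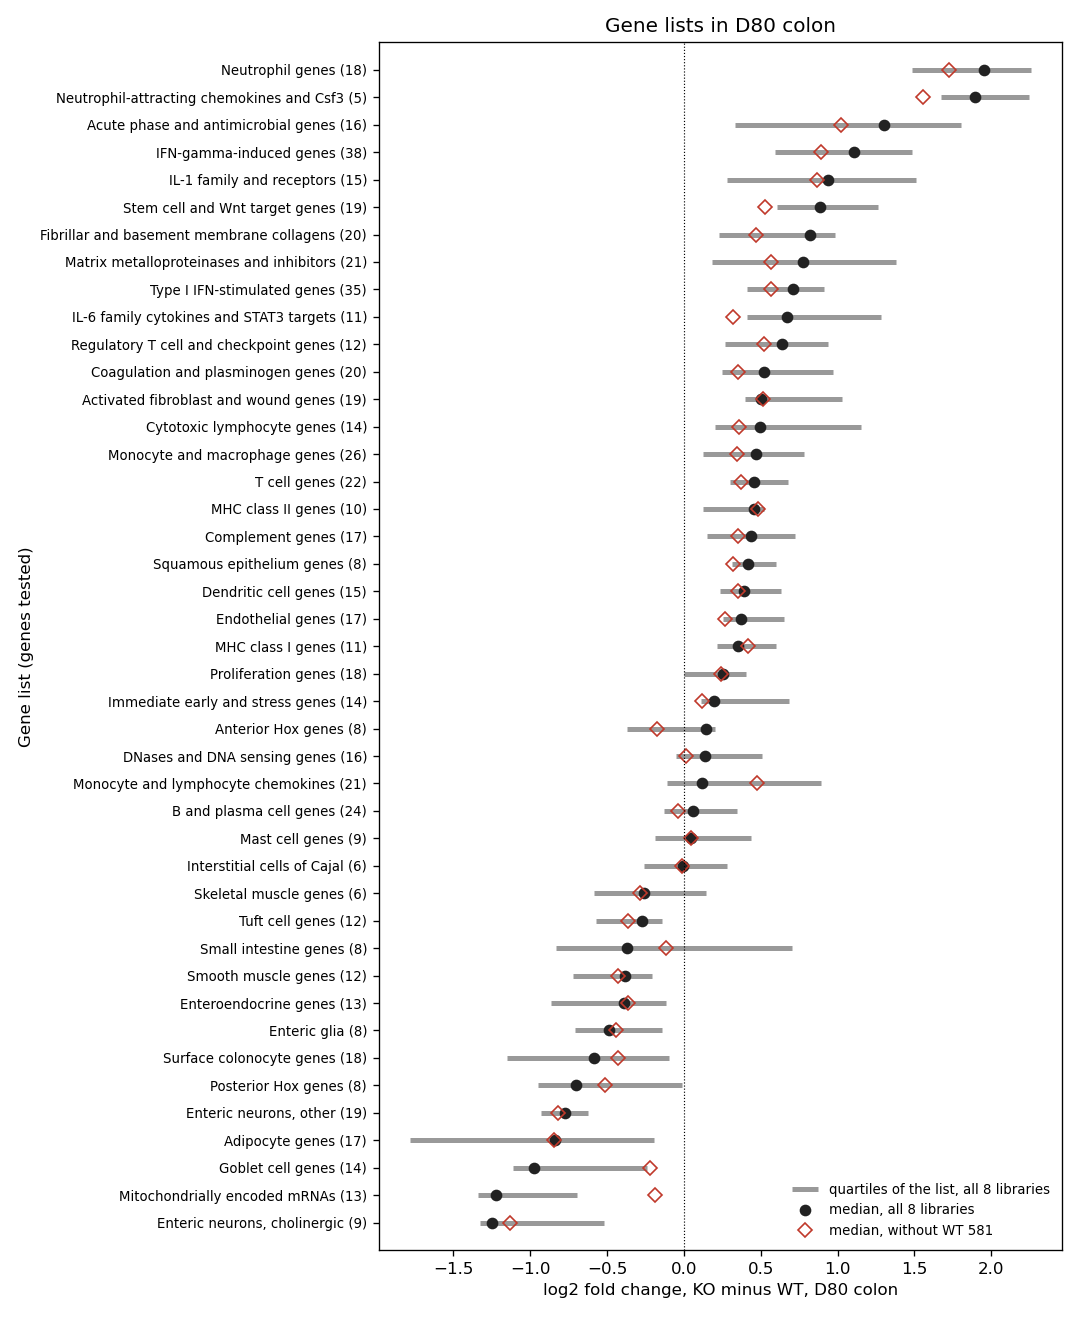
Median log2 fold change, KO minus WT, of each of the 43 gene lists in D80 colon (horizontal axis), with quartiles as gray bars and the number of genes tested in parentheses. Black points use all 8 libraries and open red diamonds leave out WT 581; the goblet cell and mitochondrial medians move from -0.97 to -0.22 and from -1.23 to -0.19.

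Of the 14 genes named as lowest in KO, 4 were on the list of cholinergic enteric neurons and 3 on the adipocyte list. Of 9 genes of cholinergic enteric neurons, 7 were lower in KO, and their median was -1.25 on the log2 scale. In 4 of them every KO library lay below every WT library, against 1.92% of all genes, and DESeq2 called the same 4, Slc18a3, Slc5a7, Chrna3 and Calb2. Slc18a3 (ENSMUSG00000100241, chr14:32462438-32464850), the vesicular acetylcholine transporter, was at 1.62, 1.699, 2.25 and 1.598 CPM in WT and 0.466, 0.887, 0.8299 and 0.735 CPM in KO. The highest KO library was below the lowest WT library, and the log2 fold change was -1.33 (SE 0.27). Slc5a7, the choline transporter that feeds acetylcholine synthesis, was at 1.73, 1.997, 3.19 and 1.95 CPM in WT and 0.466, 1.16, 0.798 and 0.705 CPM in KO, a log2 fold change of -1.52 (SE 0.34). Chrna3, the nicotinic receptor subunit of autonomic ganglia, was at 4.16, 4.47, 6.28 and 5.74 CPM in WT and 1.54, 3.21, 2.14 and 1.96 CPM in KO, a log2 fold change of -1.25 (SE 0.28). In each of these KO 535 was the KO library nearest to WT. Calb2, the calcium buffer calretinin of enteric neurons, was at 9.03, 9.09, 15.5 and 22.8 CPM in WT and 3.84, 6.84, 4.82 and 5.18 CPM in KO, a log2 fold change of -1.49 (SE 0.36) with groups apart. Without WT 581 the median of the list was -1.14, with 5 genes apart against 3.92% of all genes. Within prefix 76 the median was -0.88.

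Of 19 other enteric neuron genes, 18 were lower in KO, with a median of -0.77 and 6 apart, but DESeq2 called none. Without WT 581, 8 were apart, against 3.92% of all genes. The median within prefix 76 was -0.76. Stmn2, a tubulin regulator of neurites, was at 10.1, 9.57, 15.002 and 10.7 CPM in WT and 4.93, 8.36, 6.096 and 5.48 CPM in KO, a log2 fold change of -0.90 (SE 0.24). Gap43, a growth cone protein, had a log2 fold change of -1.08 (SE 0.32), and Uchl1, the neuronal deubiquitinase PGP9.5, one of -1.14 (SE 0.33), both with groups apart. Other genes named as lowest in KO that are known from neurons were Dpp10, a potassium channel subunit, at -1.27 (SE 0.27), Brinp2 at -1.45 (SE 0.32), Fez1, a kinesin adaptor, at -1.01 (SE 0.24), Nsg2 at -1.11 (SE 0.27) and Slitrk5 at -1.51 (SE 0.39). Zcchc12 at -1.31 (SE 0.34) and Glb1l2 at -1.27 (SE 0.25) completed those outside the adipocyte list. Enteric glia genes had a median of -0.49, with 6 of 8 lower and none apart, and that median was -0.18 without WT 555 and -0.32 within prefix 76. S100b, a calcium-binding protein of glia, was at -1.19 (SE 0.46). Smooth muscle genes were lower in KO for 11 of 12 members, with a median of -0.38 and 3 apart, Cnn1, Acta2 and Kcnmb1. Cnn1, the contractile protein calponin, was at 514, 452, 507 and 665 CPM in WT and 254, 441, 417 and 329 CPM in KO, a log2 fold change of -0.61 (SE 0.25). The groups were apart by a narrow margin between WT 542 and KO 535. Acta2, smooth muscle actin, differed by -0.87 (SE 0.36) on the log2 scale, with WT 581 high. Without WT 581, 8 of the smooth muscle genes were apart, against 3.92% of all genes, and the median was -0.43. Without WT 555 the median was -0.26. Enteric neurons lie between and beneath the muscle layers, and how much of the muscle wall each sample held was not tested. Genes of the interstitial cells of Cajal had a median of -0.0074, with both signs when single libraries were left out, and none was apart.

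Adipocyte genes were lower in KO for 16 of 17 members, with a median of -0.84, 6 apart and 4 called by DESeq2 (Adipoq, Thrsp, Retn and Cyp2e1). Adipoq, which encodes the fat hormone adiponectin, was at 6.47, 7.12, 2.82 and 6.51 CPM in WT and 0.247, 2.22, 1.37 and 1.26 CPM in KO, a log2 fold change of -2.19 (SE 0.57). All KO libraries were below WT 555, the lowest WT library. Thrsp, a regulator of fatty acid synthesis, was at 2.68, 3.01, 2.299 and 2.78 CPM in WT and 0.713, 1.35, 0.926 and 1.41 CPM in KO, a log2 fold change of -1.32 (SE 0.27). Retn, which encodes resistin, and Cyp2e1, a cytochrome P450 of fat and liver, differed by -1.78 (SE 0.46) and by -2.22 (SE 0.53), both log2 fold changes, with groups apart. KO 527 was the lowest library for Adipoq, Thrsp, Retn and Cyp2e1. The median was -0.84 without WT 581, with 9 apart against 3.92% of all genes, and -1.08 within prefix 76. The summed level of the list was 329 to 460.4 CPM in WT and 228 to 365 CPM in KO, and these ranges overlapped. The part of fat attached to the colon in these differences was not tested.

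**Figure D3:**
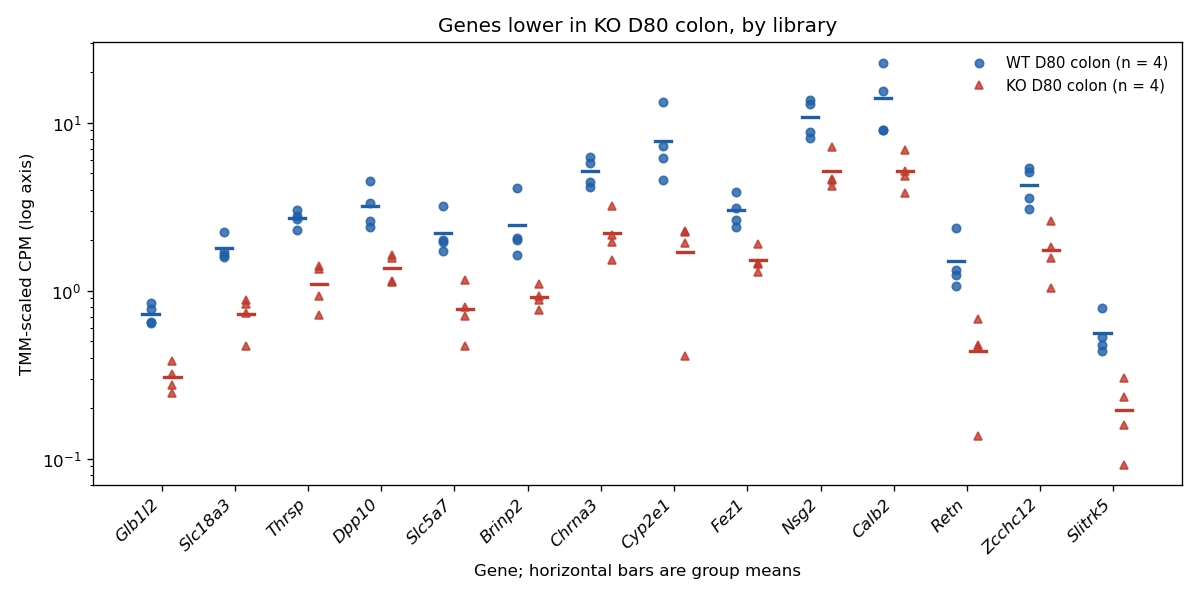
TMM-scaled CPM (log axis) of the 14 genes named as lowest in KO D80 colon (horizontal axis), with blue circles for the 4 WT and red triangles for the 4 KO libraries and bars at the group means. The genes were chosen for groups that do not overlap; Slc18a3 lies between 1.598 and 2.25 CPM in WT and between 0.466 and 0.887 CPM in KO.

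Epithelial lists differed in median, but few of their genes were apart. All 19 stem cell and Wnt target genes were higher in KO, with a median of 0.89, yet none was apart. Smoc2, a matricellular protein of crypt base stem cells, was at 35.9, 59.5, 28.8 and 24.5 CPM in WT and 92.03, 44.8, 90.997 and 95.6 CPM in KO. KO 527, 543 and 544 were above every WT library, and KO 535 lay within the WT range. Tnfrsf19, a Wnt target of stem cells, was at 4.33, 16.1, 5.39 and 4.91 CPM in WT and 21.3, 5.43, 17.1 and 26.5 CPM in KO, with WT 542 high and KO 535 low. The median of the list was 0.53 without WT 581 and 0.56 within prefix 76. Proliferation genes had a median of 0.26, with 13 of 18 higher in KO and 1, Aurkb, apart. Goblet cell genes were lower in KO for 13 of 14 members with a median of -0.97, none apart, and that median was -0.22 without WT 581 and -0.45 within prefix 76. Ang4, an antimicrobial ribonuclease, was at 1517, 1064, 204 and 13307 CPM in WT and 362, 942, 599.9 and 243 CPM in KO. Zg16, a lectin of the mucus layer, was at 2715, 2258, 3589.7 and 9745 CPM in WT and 2149, 2984, 1816 and 1847 CPM in KO. For both, WT 581 was far above the other 7 libraries. Surface colonocyte genes were lower for 16 of 18 members, with a median of -0.59 (-0.43 without WT 581 and -0.38 within prefix 76) and 1 apart. That gene was Car2, a carbonic anhydrase, at 502, 411, 705 and 1318 CPM in WT and 293, 402, 326 and 403 CPM in KO, a log2 fold change of -1.10 (SE 0.39). Slc26a3, the chloride and bicarbonate exchanger of the surface, was at 412, 337, 816 and 854 CPM in WT and 179, 406, 271 and 252 CPM in KO, with KO 535 within the WT range. Enteroendocrine genes had a median of -0.39, with 12 of 13 lower and 1 apart, Sst, which encodes somatostatin, at -0.87 (SE 0.24). Somatostatin is also made by enteric neurons. The enteroendocrine median was -0.18 without WT 555, -0.25 without KO 527, -0.25 without KO 543 and -0.71 without KO 535. Tuft cell genes had a median of -0.28 and none was apart, and this was -0.66 without KO 535, -0.18 without KO 543 and -0.73 within prefix 76. The 13 mitochondrially encoded mRNAs were all lower in KO, with a median of -1.23, which was -0.19 without WT 581 and -0.25 within prefix 76. Posterior Hox genes had a median of -0.70, anterior Hox genes one of 0.14 with Hoxb5 alone apart, below WT. Hoxb13 was highest in WT 581. With its log2 CPM as a covariate the medians were -0.35 for goblet cell, -0.33 for surface colonocyte, -0.30 for enteroendocrine, 0.66 for stem cell and Wnt target, -0.11 for posterior Hox and -0.23 for anterior Hox genes and -0.35 for the mitochondrial mRNAs. In that fit Zg16 went from -1.12 to -0.34 and Car2 to -0.52. The anterior Hox median also turned to -0.17 without WT 581 and -0.11 without KO 543, and the posterior one was -0.015 within prefix 76.

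The remaining lists showed no gene with groups apart in the case of skeletal muscle (median -0.26), small intestine (-0.37) and squamous epithelium genes (0.42). These medians moved with single libraries, that of small intestine genes to 0.11 without WT 542 and 0.16 without KO 527, that of squamous genes to 0.76 without WT 542, 0.74 without KO 535 and 0.24 without KO 527, and that of skeletal muscle genes to -0.54 without KO 543 and -0.13 without KO 527. Immediate early and stress genes had a median of 0.20 and 1 gene, Egr2, apart above WT, and that median was 0.40 without WT 555, 0.12 without WT 581 and 0.046 within prefix 76. The strand setting of the counting was not given, so reads of a gene cannot be told from those of a gene that overlaps it on the other strand. This holds for Timp1, Cxcl10, Il18bp, Uchl1, S100b, Glb1l2 and Cxcl16, each overlapped by a named gene, and for Trdc, Usp18, Ccl2, Mmp25, Sirpb1b, H2-Q4, C1s1, Cd3e, Zap70, Icam1, Lox, Dpp10, Smoc2, Tnfrsf19, Zg16, Slc37a2 and Tmprss13, overlapped by predicted genes or gene segments. Genes named without values were not looked at for overlaps. Slc18a3 overlaps Chat on the same strand. DESeq2 calls on none of the lists were, higher in KO, Serpina3f, Serpina3e-ps, Gm43302 and the immunoglobulin segment Ighv9-1, and, lower in KO, Dpp10, Brinp2 and Nmu, which encodes the neuropeptide neuromedin U.

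The comparison at D80 was set beside the same comparison at D19, after 1 cycle of AOM/DSS, and at D0, untreated, in other mice (4 WT and 4 KO at each stage). All 14 genes named as highest in KO at D80 also had a positive log2 fold change at D19, with a median of 2.26 against 1.52 at D80. Of all genes tested at D19, 50.8% lay above 0. At D0 only 7 of the 14 were tested, and 5 were positive. Among the D19 libraries, that of KO mouse 811 had the highest mitochondrial share, 10.6%, and the highest ribosomal share, 7.84%. Ubd was at 2.81 (SE 0.83) at D19 and 1.37 (SE 0.49) at D0, Cxcl9 at 2.90 (SE 0.87) and 1.22 (SE 0.64), and Timp1 at 2.33 (SE 0.83) and -0.83 (SE 0.36). The 14 genes named as lowest in KO all had a negative log2 fold change at D19, with a median of -0.60 against -1.32 at D80, and 10 of them had a negative one at D0. Slc18a3 was at -0.19 (SE 0.29) at D19 and -0.56 (SE 0.33) at D0, and Adipoq at -0.71 (SE 0.71) and 0.091 (SE 0.82). The median of the IFN-γ-induced list was 0.12 at D0 and 1.36 at D19, that of the neutrophil list 2.53 at D19, and that of the cholinergic neuron list -0.56 at D0 and -0.38 at D19. Smooth muscle genes had medians of -0.59 at D0 and -0.45 at D19. Stem cell and Wnt target genes were at -0.35 at D19, below 0, and at 0.89 at D80.

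**Figure D4:**
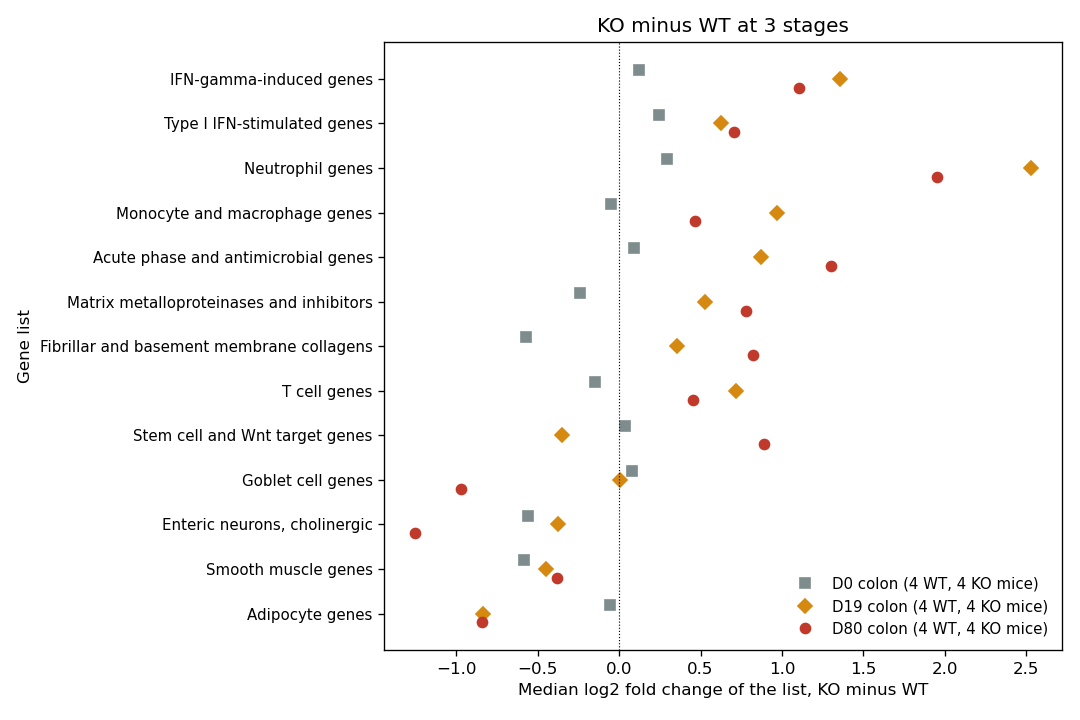
Median log2 fold change, KO minus WT (horizontal axis), of 13 gene lists at D0 (gray squares), D19 (orange diamonds) and D80 (red circles), each from 4 WT and 4 KO mice. The IFN-γ-induced list lies at 0.12, 1.36 and 1.11, and the cholinergic neuron list at -0.56, -0.38 and -1.25; only 3 neutrophil genes were tested at D0.

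The difference between stages was tested itself. For the KO minus WT difference at D80 minus that at D19, edgeR called none of 20335 genes, neither larger (0%) nor smaller (0%), with 2106 at an unadjusted p under 0.05. DESeq2 called 18 larger (0.0885%) and 0 smaller (0%). Apart from Tmprss13 and 1810028F09Rik, these were pancreatic enzyme genes such as Cela3a, Prss1 and Amy2a5 and immunoglobulin variable segments. At D80 Cela3a, a pancreatic elastase, had 569 counts in KO 543, 1 count in KO 535 and 0 in the other 6 libraries, so its level at D80 rests on KO 543. Of the genes with the smallest p, Tmprss13, a serine protease of epithelium, differed by 2.62 (SE 0.58) on the log2 scale, from -2.10 (SE 0.40) at D19 to 0.51 (SE 0.39) at D80. Ms4a4a, a surface protein of macrophages, differed by -1.34 (SE 0.35), from 1.48 (SE 0.26) to 0.13 (SE 0.24). For the difference at D80 minus that at D0, edgeR called none of 19668 genes, with 1542 at an unadjusted p under 0.05 and a lowest adjusted p of 0.165. DESeq2 called 10 larger (0.0508%) and 24 smaller (0.122%). Slc37a2, a sugar phosphate exchanger, differed by -6.50 (SE 1.24), from 4.82 (SE 0.95) at D0 to -1.74 (SE 0.60) at D80, and Gal3st2, a sulfotransferase with near-identical neighboring copies, by -2.55 (SE 0.42), from 2.07 (SE 0.26) to -0.54 (SE 0.30). Among the larger ones were Timp1, Trdc, Il11, Saa3, Ccn4, Nptx2, Mrgpre, Slc39a6 and Gm2399. Of these Timp1, Trdc, Il11 and Saa3 were also called by DESeq2 at D80, in a comparison that shares the D80 libraries. With single libraries left out, edgeR called 12 smaller without KO D0 mouse 872, and 1 larger and 2 smaller without WT D80 mouse 542.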

How the data were processed

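RNA-Seq was performed on total RNA from whole colon (RNeasy, TruSeq, single-end reads of 75 nt on a NextSeq). The authors checked reads with FastQC 0.11.5, mapped them to mm10 with STAR and assigned them to GENCODE genes with Subread, and deposited raw counts per gene. The strand setting was not given in the sources used here. No column of other samples was left out (0). Positions are those of GENCODE on GRCm38.

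From these counts, the 8 D80 libraries were fitted with edgeR 4.0.16 (R 4.3.3) by its quasi-likelihood test with TMM scaling, after filterByExpr with a minimum count of 10, and p-values were adjusted over all genes tested by the Benjamini-Hochberg method. A gene could pass the filter through the libraries of 1 genotype alone. A gene was called at an adjusted p under 0.05 with a fold change over 2. CPM were computed with TMM factors over all 32 libraries. The SE of a log2 fold change was the estimate divided by the root of the test's F. The difference between stages was tested as an interaction of genotype and stage in 16 libraries. Each library is 1 mouse. WT 541, 542 and 555 and KO 527, 543 and 544 each gave both a D80 colon and a tumor library. The fit of all 32 libraries treated these as independent. The series held no tumor library of WT 581 or KO 535. DESeq2 1.42.0, the tool of the study, and limma 3.58.1 (voom with quality weights), other filters and scalings, more libraries in a fit, the label prefix as a block or prefix 76 alone, a covariate, and each library left out in turn were the alternatives. The lists without WT 581 or within prefix 76, and DESeq2 on those libraries, were added after seeing the data. The script was tested on simulated data.

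Genes were named as follows: 14 in each direction by smallest p among those with a fold change over 2 and groups that do not overlap, up to 4 of each of 43 lists by smallest p, members of counts of 5 or fewer, Cd3e, Cd8a, Gzmb, Ifng and Dnase1l3, and a few of each interaction. Other genes, such as Zg16, Muc2, Hoxb13 and Ido1, were named after their values were seen. The members and lists were chosen with earlier results of these data known. Promoter windows are from RefSeq. The authors' own comparisons were not used, and a few genes are not reported here.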

Additional observations from a re-analysis of the deposited data

Results flagged for a closer look

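In each genotype, 5 measures of the library and the CPM of 106 genes were checked for 1 of the 4 libraries lying far from the other 3 relative to the whole range (Dixon's criterion), which gave 222 groups of 4. Chance flags about 1 in 20 such groups, and 26 were flagged, 7 of them through WT 581. No cause was tested.

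WT 581 had the highest share of mitochondrially encoded mRNAs, 15.1% of counts, and of ribosomal protein mRNAs, 6.86%. It was also the highest WT library for Acta2 at 1932 CPM, Ang4 at 13307 CPM, the goblet cell peptide gene Retnlb at 8185 CPM, the enteroendocrine peptide gene Insl5 at 217 CPM and mt-Co3, a subunit of cytochrome c oxidase, at 44083 CPM. WT 542 was the highest WT library for Cxcl5 at 16.5 CPM, Cxcl1 at 3.76 CPM, Il33 at 21.5 CPM, Osm at 2.24 CPM and Tnfrsf19 at 16.1 CPM. WT 541 was the highest for Ifi44 at 5.30 CPM and WT 555 for Slc18a3 at 2.25 CPM, while WT 555 was the lowest for Adipoq at 2.82 CPM.

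Among the KO libraries, KO 535 was the highest for Cd8a at 4.35 CPM, Nsg2 at 7.14 CPM and Muc2 at 5619 CPM, and the lowest for Mmp25 at 2.89 CPM, Col1a1 at 149 CPM and Smoc2 at 44.8 CPM. KO 527 was the highest for Cxcl1 at 11.02 CPM, Il11 at 12.3 CPM and Fpr1 at 2.06 CPM. KO 544 was the highest for Dnase1l3 at 11.8 CPM and the lowest for Saa3 at 67.9 CPM.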

How the results depend on the processing

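No paired analysis was possible because no mouse number occurs in both genotypes at D80. At D80 edgeR called 0 genes higher and 0 lower with every other scaling, filter, set of libraries and covariate tried and with each library left out, and limma also called 0. The lowest adjusted p was 0.0761 with limma, 0.153 with the label prefix as a block, 0.126 on prefix 76 alone, and 0.213 to 0.891 with 1 library left out. DESeq2 called 32 higher and 11 lower, 61 and 28 without WT 581, and 43 and 25 on prefix 76 alone. The counts of genes with groups that do not overlap were 4715 and 3558 on prefix 76 alone, and with 1 library left out 813 to 2260 above and 472 to 1235 below, since fewer libraries overlap less often. For the interactions, DESeq2 called 18 larger at D80 than at D19, and 10 larger and 24 smaller than at D0. With 1 library left out, edgeR called 0 to 1 larger and 0 to 12 smaller than at D0. Of the list medians, those of monocyte and lymphocyte chemokines, B and plasma cell, mast cell, Cajal cell, small intestine, posterior Hox and anterior Hox genes changed sign under some setting. The medians of the other 36 lists kept their sign in all, Hoxb13 as a covariate and RLE scaling included. The medians of 34 of the 43 lists moved by over 1.5 times on prefix 76 alone, 33 with the prefix as a block, 22 with limma, 13 with Hoxb13 as a covariate and 4 to 12 with 1 library left out. Every prefix other than 76 held a single library at D80. The fit with the prefix as a block therefore rests on the genotype difference within prefix 76 and is not a separate check. Ifng, with at most 18 counts in a library, did not pass the filter on low counts at D80.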

Other observations

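At D19 Cela3a had 184 and 147 counts in WT mice 686 and 812 and 0 in the other WT mice, and 24 counts in KO mouse 811 and at most 1 in the other KO mice. Among the DESeq2 calls that were smaller at D80 than at D0 were genes of colon epithelium. Best2, a chloride and bicarbonate channel of goblet cells, was at -2.88 (SE 0.67). Reg4, a secreted lectin, was at -5.57 (SE 1.38), and Atp12a, the colonic proton and potassium pump, at -5.50 (SE 1.38). For D80 minus D0, the 8 posterior Hox genes had a median of -2.29 in edgeR. Of these, 3 lay above 0, and 5 lay below 0 at an unadjusted p under 0.05. Whether the samples differed in position along the colon was not tested.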
